A study of Mus musculus with 11 samples.

Results

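The expression of 10 genes of cartilage was examined in 2 kinds of mouse cells with and without Atxn7l3, embryonic stem cells (mESCs) and embryonic fibroblasts (MEFs). The set comprised the transcriptional regulators Sox9, Sox5 and Sox6 and the matrix genes Acan, Hapln1, Matn1, Matn3, Matn4, Comp and Chad. The 10 genes were taken by symbol from the RNA-seq count tables of both cell types, which together list 34570 genes, and all 10 were listed in both tables. Collagens were not part of the set. Of the 11 poly(A)-selected libraries, 5 were from mESCs (2 WT, labelled Atxn7l3+/+, and 3 Atxn7l3-/-) and 6 from MEFs (3 WT and 3 labelled Atxn7l3-/-). All lines were on a DBA/2 x C57BL/6 background and received no treatment. The mESCs were derived from blastocysts, kept on feeders for 2 passages and then without feeders, with LIF, 15% foetal calf serum, PD0325901 at 1 uM and CH99021 at 3 uM. The MEFs were cultured from E10.5 embryos in medium with 10% foetal calf serum. The Atxn7l3 allele was a germline null allele, present in every cell from conception, and heterozygous mice were intercrossed to obtain both genotypes.

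Cartilage is built by chondrocytes, whose differentiation from mesenchyme depends on SOX9, a DNA-binding regulator of cartilage matrix genes. SOX5 and SOX6 are related proteins that bind DNA next to SOX9 and strengthen its action on such genes. In the matrix, aggrecan (Acan) is the large proteoglycan that holds water, and link protein (Hapln1) fastens it to hyaluronan. The matrilins (Matn1, Matn3 and Matn4) and COMP are adaptor proteins that connect collagen fibrils with proteoglycans, and chondroadherin (Chad) is a small leucine-rich protein that binds collagen and cells. ATXN7L3 is an adaptor of the deubiquitylation module of the SAGA co-activator, which removes ubiquitin from histone H2B. Fibroblast cultures from whole embryos can hold precursors of skeletal tissue, whereas mESCs are pluripotent cells that form no cartilage in this medium.

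The libraries held 34515342 to 49602605 counts, and 3 counts, taken as the floor, corresponded to 0.0571 to 0.0935 CPM (counts scaled to a common library size of 1e6 by the TMM method). Atxn7l3 itself was at 196 and 202 CPM in WT mESCs and at 3.33, 1.6 and 0.831 CPM in Atxn7l3-/- mESCs. In MEFs it was at 86.4, 117 and 104 CPM in WT libraries and still at 56.4, 55.3 and 73.2 CPM in those labelled Atxn7l3-/- (log2 difference -0.74 ± 0.21 (SE), adjusted p = 0.0715). The counts per gene do not show which exons these MEF reads came from, so every direction given below for MEFs is between libraries as labelled. All 8 fibroblast markers were higher in WT MEFs than in WT mESCs, and the 5 pluripotency markers tested in both were lower. Reads of the Y-linked genes were at 269 and 64 counts in Atxn7l3-/- mESC replicates 1 and 2 and at 34 in WT MEF replicate 3, against 5957 to 20907 in the other 8 libraries. WT MEF replicate 2 stood apart from the other WT MEFs on the second principal component (-41.9, against 29.78 and 8.45), which held 13.1% of the variance. On the first, which held 73.3%, it lay at -52.21, beside -60.62 and -53.28. The components were taken over 500 genes.

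The sequences before the transcription starts show which stretches of DNA the measured genes carry there. RefSeq promoter windows on GRCm38.p6 were at hand for 8 of the 10 genes, in 14 windows, and Sox9 and Comp had none. The 250 bases before each start were searched on both strands for ACAAAG and AACAAT, core letters that SOX proteins recognise, which do not overlap in the sequences below. Of 32851 such windows genome-wide, 24.0% held either motif. Among the windows of the 10 genes 5 of 14 did, and these 5 were all starts of Sox6. Matn4 and Matn1 are shown because their genotype effects differed most between the cell types. Acan is shown because it lay below WT in both. So did Sox9, which had no window, and Hapln1, whose window held no match and is not shown. An inner Sox6 start is shown because it held 4 matches, in capitals. The positions are chr2:164405161-164405410 on the minus strand for Matn4, chr4:130944135-130944384 on the plus strand for Matn1, chr7:79052976-79053225 on the plus strand for Acan and chr7:115824711-115824960 on the minus strand for Sox6.
Matn4: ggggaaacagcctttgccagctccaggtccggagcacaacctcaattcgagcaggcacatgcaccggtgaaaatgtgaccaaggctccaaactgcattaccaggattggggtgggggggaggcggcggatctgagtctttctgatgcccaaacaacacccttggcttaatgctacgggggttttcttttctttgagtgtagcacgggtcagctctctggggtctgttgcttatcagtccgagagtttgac
Matn1: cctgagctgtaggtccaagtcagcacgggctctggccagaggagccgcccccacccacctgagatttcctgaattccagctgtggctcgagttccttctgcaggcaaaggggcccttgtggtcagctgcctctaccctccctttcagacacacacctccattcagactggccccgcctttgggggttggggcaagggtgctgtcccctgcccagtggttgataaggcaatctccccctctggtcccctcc
Acan: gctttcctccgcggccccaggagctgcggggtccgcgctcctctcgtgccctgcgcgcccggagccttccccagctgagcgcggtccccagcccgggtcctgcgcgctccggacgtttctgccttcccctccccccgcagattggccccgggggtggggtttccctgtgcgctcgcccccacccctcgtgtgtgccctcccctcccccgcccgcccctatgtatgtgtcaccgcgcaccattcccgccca
Sox6: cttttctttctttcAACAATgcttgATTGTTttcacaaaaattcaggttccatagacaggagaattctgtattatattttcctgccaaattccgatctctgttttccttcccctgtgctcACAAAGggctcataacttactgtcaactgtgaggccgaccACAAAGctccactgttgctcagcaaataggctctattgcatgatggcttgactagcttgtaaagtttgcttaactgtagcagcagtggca
A window without a match says only that these letters are not in these bases.

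In MEFs, 6 of the 7 matrix genes and Sox9 lay lower in the libraries labelled Atxn7l3-/- than in WT and Sox5 lay higher, and Matn4 was the 1 gene of the set that passed the test. Matn4 fell 141-fold. For 7 of the 10 genes, every library labelled Atxn7l3-/- was below every WT library (Sox9, Acan, Hapln1, Matn1, Matn3, Matn4 and Comp), and for Sox5 every such library was above. Among all 15958 genes tested in MEFs, to which Matn1 did not belong, 19.7% showed the first arrangement and 20.1% the second. Genotypes were compared by the quasi-likelihood test of edgeR, adjusted by Benjamini-Hochberg over all genes tested, and a gene was called at an adjusted p of 0.05 or less, which held for 9.41% of genes (4.39% lower, 5.01% higher). Of the 10 genes 8 entered this test, since Matn1 and Chad had too few counts, and 1 was called, lower. At an unadjusted p under 0.05 there were 7 of the 8, all but Sox6, beside 32.4% of all genes, and DESeq2 called 5 (Sox9, Hapln1, Matn3 and Matn4 lower and Sox5 higher), in a fit that called 24.9% of all genes. In RNA from whole cultures, fewer cells of a type and less RNA per cell cannot be told apart.

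**Figure D1:**
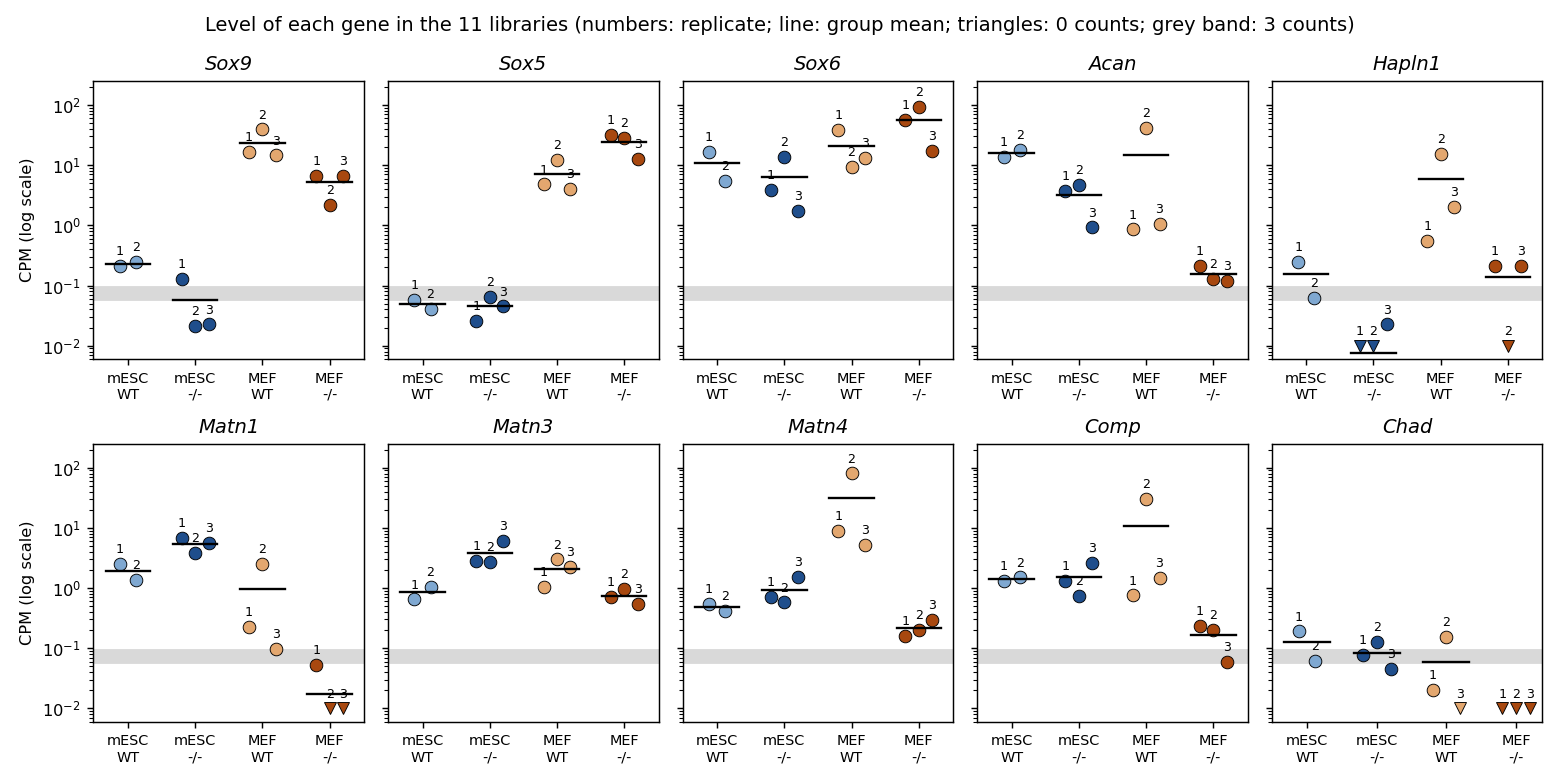
Level of the 10 genes in each of the 11 libraries, in CPM on a log axis, by cell type and genotype label. Numbers give the replicate, lines the group mean, triangles a count of 0 (drawn at the foot of the axis), and the grey band the level of 3 counts, 0.0571 to 0.0935 CPM. WT MEF replicate 2 is the highest MEF library in 8 of the 10 panels, and the libraries labelled Atxn7l3-/- lie below all WT MEFs in 7.

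Among the regulators, Sox9 (chr11:112782224-112787760, plus strand, mm10) was at 16.6, 39.2 and 14.5 CPM in WT MEFs and at 6.73, 2.2 and 6.66 CPM in MEFs labelled Atxn7l3-/-. The groups did not overlap, and the lowest WT library was 2.16 times the highest of the other group. The log2 difference was -2.18 ± 0.59 (SE), and it missed the threshold (adjusted p = 0.0631). Sox5 (chr6:143828425-144781977, minus strand) was at 4.8, 12.4 and 4.07 CPM in WT and at 31.9, 28.2 and 12.9 CPM in MEFs labelled Atxn7l3-/-. WT replicate 2 and the labelled replicate 3 nearly met, at 12.4 and 12.9 CPM. The difference of 1.76 ± 0.55 (log2, SE) was not called without a replicate block (adjusted p = 0.0842). With the replicate number as a block, since MEF libraries of the same number deviated together, it was called as a rise (log2 1.84, adjusted p = 0.0389), in a fit that called 14.0% of all genes. Sox6 (chr7:115470872-116038796, minus strand) was at 39, 9.48 and 13.3 CPM in WT and at 57, 93.6 and 17.3 CPM in MEFs labelled Atxn7l3-/-, so that the groups overlapped (log2 difference 1.4 ± 0.74, SE, adjusted p = 0.23). The summed level of the 3 regulators was 31.9 to 61.1 CPM in WT and 36.9 to 124 CPM in the other group.

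Of the matrix genes, Matn4 (chr2:164389393-164405160, minus strand) was in WT MEFs at 8.77, 80.2 and 5.14 CPM, and was at 0.159, 0.204 and 0.299 CPM in MEFs labelled Atxn7l3-/-. The 3 latter libraries held 6 to 10 counts, against 211 to 2573 in WT. The difference of -7.14 ± 1.31 (log2, SE) was called (adjusted p = 0.0273, and 0.0262 with the replicate block), and Matn4 was also the 1 gene of the set past the study's thresholds of at least 2-fold and a median above 10 normalized reads per kb. Of all genes tested, 7.60% passed these. The call for Matn4 was lost without labelled replicate 1 (adjusted p = 0.0869) or replicate 2 (adjusted p = 0.101), at log2 differences of -6.92 and -7.07.

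Acan (chr7:79053483-79115099, plus strand) was at 0.855, 41.9 and 1.07 CPM in WT MEFs and at 0.212, 0.128 and 0.12 CPM in those labelled Atxn7l3-/-. Its log2 difference was -6.55 ± 1.79 (SE, adjusted p = 0.0647). Hapln1 (chr13:89539796-89611652, plus strand), whose product ties aggrecan to hyaluronan, was at 0.55, 15.3 and 2 CPM in WT and at 0.212, 0 and 0.209 CPM in the other group (log2 difference -5.39 ± 1.62, SE, adjusted p = 0.0783). Both genes thus had low levels in 2 of the 3 WT libraries and a high level in replicate 2. Comp (chr8:70373558-70382066, plus strand) had the same arrangement, with 0.753, 29.9 and 1.46 CPM in WT and 0.238, 0.204 and 0.0598 CPM in MEFs labelled Atxn7l3-/- (log2 difference -5.97 ± 1.64, SE, adjusted p = 0.0652).

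The other matrilins were less abundant. Matn3 (chr12:8947929-8972028, plus strand) was at 1.06, 2.99 and 2.22 CPM in WT MEFs and at 0.715, 0.97 and 0.538 CPM in those labelled Atxn7l3-/- (log2 difference -1.5 ± 0.53, SE, adjusted p = 0.111). The groups were close to each other, the lowest WT library being 1.09 times the highest of the other group. Matn1 (chr4:130944385-130955475, plus strand) had 11, 81 and 4 counts in WT and 2, 0 and 0 counts in the other group, which makes its mean at least 11.6-fold lower there when each such library is set at the floor. It was not tested, and without WT replicate 2 the bound was 1.96-fold. Chad (chr11:94565047-94569127, plus strand) was at or near the limit of detection everywhere in MEFs, with 1, 5 and 0 counts in WT and 0 in each of the others, so that no difference was detectable at this depth. Chad lies inside Acsf2, which runs on the opposite strand.

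**Figure D2:**
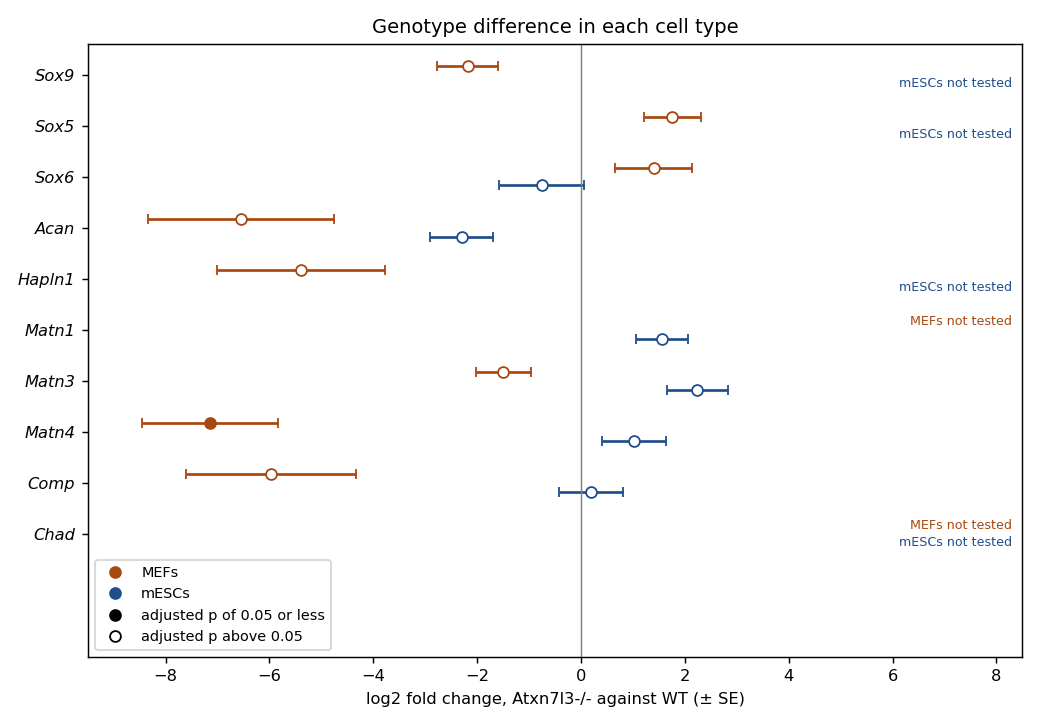
Log2 fold change of the 10 genes between Atxn7l3-/- and WT libraries as labelled, in MEFs and in mESCs, with its standard error. Filled points have an adjusted p of 0.05 or less, which in these fits was Matn4 in MEFs at -7.14, and genes below the count filter are marked as not tested.

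WT MEF replicate 2 set the size of the matrix differences. It was the highest of the 6 MEF libraries for 8 of the 10 genes (all but Sox5 and Sox6), as it was for 22.1% of all genes tested. Matn1 and Chad, among these 8, were not tested. Against the mean of WT replicates 1 and 3, its level was 43.5 times as high for Acan, 27 times for Comp, 15.7 times for Matn1, 12 times for Hapln1 and 11.5 times for Matn4. The gap was small for Matn3 (1.83 times) and Sox9 (2.52 times), and Sox6 was lower in it (0.362 times). The 7 matrix genes summed to 173 CPM in replicate 2 and to 12.2 and 12 CPM in replicates 1 and 3, against 1.22 to 1.59 CPM in MEFs labelled Atxn7l3-/-. WT replicates 1 and 3 thus still lay above the other group.

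Without WT replicate 2, the matrix differences shrank but kept their direction, and 3 genes in place of 1 were called, against 5.23% of all genes in that fit. Matn4 was then lower by a log2 difference of -4.96 (adjusted p = 0.0243) and Acan by -2.63 (adjusted p = 0.0495), and Sox5 was higher by 2.45 (adjusted p = 0.0489). Comp at -2.69, Hapln1 at -3.16, Matn3 at -1.14 and Sox9 at -1.58 were not called (adjusted p from 0.0745 to 0.214). With WT replicate 3 left out instead, so that all 5 remaining libraries carried Y-linked transcripts, Matn4 was called as before (log2 -7.64, adjusted p = 0.0459). For Acan and Matn4 the difference was thus smaller and its adjusted p lower when the library with the highest levels was absent.

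**Figure D3:**
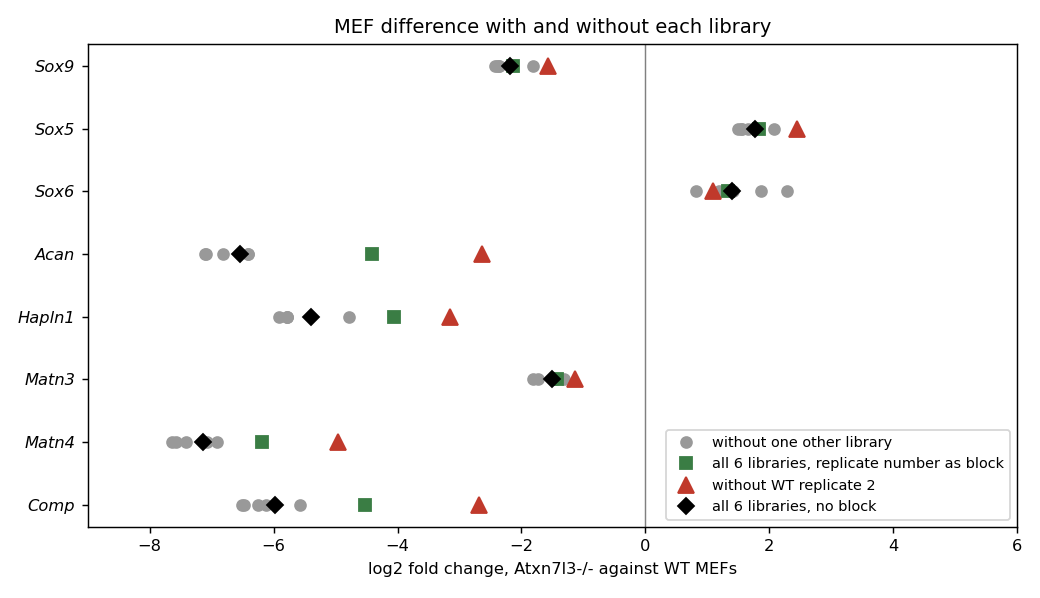
Log2 fold change in MEFs for the 8 genes tested, with all 6 libraries, with the replicate number as a block, and with each library left out in turn. Leaving out WT replicate 2 moves Acan from -6.55 to -2.63 and Comp from -5.97 to -2.69, while Sox9, Sox5 and Matn3 move by less than 1 log2 unit.

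Markers of other cell types differed between the MEF groups as well, in the fit that called 9.41% of all genes. Of 5 mesothelial markers, 4 were called higher in MEFs labelled Atxn7l3-/- (Wt1, Msln, Upk3b and Lrrn4), and their sum over all 5 was 14.4 to 40.2 CPM in WT and 3990 to 5830 CPM in the other group. Of 4 tendon markers 2 were lower (Scx and Tnmd, summed list 68.2 to 389 CPM against 1.94 to 6.6 CPM). Of 7 neural progenitor markers 1 was lower (Fabp7, 85 to 214 CPM against 2.12 to 24.2 CPM, with 2 to 4 genes at 0), of 5 muscle markers 1 (Myh3, 23.1 to 72.1 CPM against 11.1 to 17.1 CPM), and of 4 epithelial markers 1 was higher (Krt18, 0.998 to 2.9 CPM against 6.89 to 35.3 CPM). Of the 4 pluripotency markers tested 1 was higher (Tfcp2l1, itself at 1.07 to 1.56 CPM in WT and 27.2 to 75.1 CPM in the other group), while the 5 listed for MEFs summed to 43.9 to 99.4 CPM against 52.2 to 98.7 CPM. edgeR called none of 8 fibroblast markers (16700 to 45900 CPM against 22700 to 39700 CPM; 1 at an unadjusted p under 0.05, 1 by DESeq2), of 5 macrophage markers (151 to 322 CPM against 109 to 660 CPM; 0 and 0) or of 5 endothelial markers (6.36 to 76.7 CPM against 3.32 to 21.9 CPM; 2 and 2). With 1 library left out in turn, the mesothelial calls numbered 4 each time, the tendon calls 1 to 3, the pluripotency calls 1 to 2, the muscle calls 0 to 2, the calls of neural progenitor, epithelial, fibroblast and endothelial markers 0 to 1 and those of macrophage markers 0, in fits that called 1.2% to 12.2% of all genes. The part of these cell types in the differences of the cartilage genes was not tested.

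In mESCs, Acan was lower and Matn1, Matn3 and Matn4 were higher in every Atxn7l3-/- library than in both WT libraries, but edgeR's quasi-likelihood test called none of the 6 genes that entered it. Across all 17800 genes tested in mESCs, 6.96% were called. At an unadjusted p under 0.05 there were 3 of the 6 (Acan, Matn1 and Matn3), beside 29.8% of all genes, and DESeq2 called these 3, in a fit that called 19.3% of all genes. Over all 10 genes, every Atxn7l3-/- library lay below both WT libraries for 3 (Acan, Sox9 and Hapln1) and above for 3 (Matn1, Matn3 and Matn4), arrangements shown by 26.7% and 23.0% of all genes tested. Sox9 and Hapln1 had too few counts to be among the genes behind these shares.

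Acan was at 13.7 and 18.2 CPM in WT mESCs, more than in WT MEF replicates 1 and 3, and at 3.77, 4.75 and 0.921 CPM in Atxn7l3-/- mESCs. Its log2 difference was -2.3 ± 0.6 (SE, adjusted p = 0.0606). Matn3 was at 0.647 and 1.05 CPM in WT and at 2.8, 2.72 and 6.02 CPM in Atxn7l3-/- mESCs (log2 difference 2.24 ± 0.59, SE, adjusted p = 0.062). Atxn7l3-/- replicate 3 was the most distant from WT for both genes. Matn1 was at 2.48 and 1.36 CPM in WT and at 6.8, 3.85 and 5.57 CPM in Atxn7l3-/- mESCs (log2 difference 1.55 ± 0.5, SE, adjusted p = 0.0947). Matn4 was at 0.552 and 0.411 CPM in WT and at 0.718, 0.577 and 1.53 CPM in Atxn7l3-/- mESCs (log2 difference 1.02 ± 0.62, SE, adjusted p = 0.307).

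Comp overlapped between the mESC genotypes, at 1.33 and 1.5 CPM in WT and 1.31, 0.748 and 2.58 CPM in Atxn7l3-/- cells (log2 difference 0.19 ± 0.62, SE, adjusted p = 0.863). Sox6 was at 16.4 and 5.47 CPM in WT and at 3.82, 13.6 and 1.71 CPM in Atxn7l3-/- mESCs, also overlapping (log2 difference -0.76 ± 0.82, SE, adjusted p = 0.562). The other regulators were close to the limit of detection. Sox9 had 11 and 12 counts in WT and 5, 1 and 1 counts in Atxn7l3-/- mESCs, and Sox5 had 1 to 3 counts in every mESC library. Hapln1 had 13 and 3 counts in WT and 0, 0 and 1 counts in Atxn7l3-/- mESCs, a mean at least 2.22-fold lower when these libraries are set at the floor. Chad had 10 and 3 counts in WT and 3, 6 and 2 counts in the others. Sox9, Sox5, Hapln1 and Chad did not enter the test in mESCs.

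The Atxn7l3-/- mESC libraries were not alike. Replicates 1 and 2 lacked the Y-linked transcripts that both WT libraries and replicate 3 carried. With replicate 3 as the 1 remaining Atxn7l3-/- library, assumed to vary like the WT pair, a comparison chosen after seeing the data, which called 20.8% of all genes, called Acan lower (log2 -4.03, adjusted p = 0.00412), Sox6 lower (-2.6, adjusted p = 0.0356) and Matn3 higher (2.91, adjusted p = 0.0103). Without replicate 3, Acan was lower by a log2 difference of -1.87 (adjusted p = 0.0277) and Matn3 was higher by 1.74 (adjusted p = 0.0705). No Atxn7l3-/- library overlapped WT for Acan or Matn3, so their directions on both sides of this split were fixed in advance. Fibroblast markers summed to 1380 and 2390 CPM in WT and 2990 to 5120 CPM in Atxn7l3-/- mESCs. With all mESC libraries, 2 of 8 were called higher (Col1a1 and Postn), beside 6.96% of all genes called. Pluripotency markers summed to 3560 and 4220 CPM in WT and 3210 to 3570 CPM in Atxn7l3-/- mESCs, with none of 7 called by edgeR (2 at an unadjusted p under 0.05, 1 by DESeq2). Of the other marker lists, Foxd3, Tfap2a and Myh3 were lower and Scx and Epcam higher. The part of sex or of remaining fibroblasts in the mESC differences was not tested.

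The matrilins differed between the cell types in how they changed with the genotype label. In 1 fit of all 11 libraries, the effect in MEFs minus that in mESCs was -8.1 ± 1.55 (log2, SE) for Matn4 (adjusted p = 0.0134), -3.66 ± 0.86 for Matn3 (adjusted p = 0.0257) and -6.98 ± 1.9 for Matn1 (adjusted p = 0.0411). These 3 of the 9 genes tested were called, all with a lower effect in MEFs, against 11.4% of 19312 genes called (5.27% lower). The value for Matn1 depends on the prior count, since no library of MEFs labelled Atxn7l3-/- exceeded the floor. Comp came next (-6.09 ± 1.9, adjusted p = 0.0611), followed by Acan (-4.2 ± 1.96, adjusted p = 0.171). Sox6 (2.22 ± 1.24, adjusted p = 0.246), Sox5 (1.88 ± 1.03, adjusted p = 0.238), Hapln1 (-1.49 ± 4.21, adjusted p = 0.837) and Sox9 (-0.18 ± 1.56, adjusted p = 0.948) were not called. With the replicate number as a block within each cell type, 1 of the 3 remained called, Matn4 (log2 -6.59, adjusted p = 0.0259), against 7.15% of all genes, while Matn1 and Matn3 had adjusted p = 0.0513 and 0.0582. None was called without WT mESC replicate 1 or 2, in fits that called 1.25% and 1.59% of all genes. None was called either in the 8 libraries with Y-linked transcripts (0.308%), while all 3 were called without WT MEF replicate 2. The call for Matn1 was lost in 12 of the recomputed fits and kept in 7. Among these losses were GC correction and leaving out any 1 Atxn7l3-/- library of either cell type. That for Matn3 was lost in 7 and kept in 13, and that for Matn4 lost in 3 and kept in 16.

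Across cell types, 2 of the 3 regulators and 2 of the 6 matrix genes tested were called higher in WT MEFs than in WT mESCs. Sox5 and Sox9 were MEF genes in both genotypes. Sox5 was at least 119-fold higher in WT MEFs than in WT mESCs and at least 350-fold higher in the MEFs than in the mESCs labelled Atxn7l3-/-, with mESC libraries set at the floor. Without WT MEF replicate 2 the first of these bounds was 74.7-fold. Sox9 was higher by a log2 difference of 6.67 ± 0.93 (SE, adjusted p = 0.000228) in WT cells and by 6.48 ± 0.81 (adjusted p = 7.95e-05) in cells labelled Atxn7l3-/-. Matn4 (6.02 ± 1.26, adjusted p = 0.00257) and Hapln1 (5.23 ± 1.66, adjusted p = 0.0208) were also higher in WT MEFs. These 4 of 9 genes tested compare with 54.0% of all genes called. Sox6, Comp and Matn3 were not called in WT cells with all libraries. With 1 library left out in turn, their log2 differences were 0.06 to 1.91, -0.35 to 3.47 and 0.95 to 1.68. Comp alone of these was then called, higher, without WT MEF replicate 1, in a fit that called 51% of all genes. The call for Hapln1 was lost with the replicate block (log2 4.89, adjusted p = 0.0694), with GC correction and block (adjusted p = 0.0755), without WT MEF replicate 2 (log2 3.01, adjusted p = 0.0521) and without WT mESC replicate 1 or 2 (adjusted p = 0.0702 and 0.141). In WT cells, Acan differed by -0.13 ± 1.3 and Matn1 by -1.03 ± 1.1, neither called with all libraries. Without WT MEF replicate 2 both were called lower in WT MEFs (Acan log2 -4.04, adjusted p = 0.00184; Matn1 -3.53, adjusted p = 0.00688), in a fit that called 53.3% of all genes.

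Among the cells labelled Atxn7l3-/-, 4 matrix genes were lower in MEFs. Acan (log2 -4.33 ± 1.43, SE, adjusted p = 0.0217), Matn3 (-2.37 ± 0.57, adjusted p = 0.00431) and Comp (-3.17 ± 1.26, adjusted p = 0.0478) were below the mESCs, and Matn1 was at least 66-fold lower (adjusted p = 0.000975). Sox6 was higher there (3.13 ± 0.9, adjusted p = 0.0111). With Sox5 and Sox9 this made 7 of 9 genes called, against 61.0% of all genes. The call for Acan was lost without any 1 of the MEF libraries labelled Atxn7l3-/-, without Atxn7l3-/- mESC replicate 2 and in the libraries with Y-linked transcripts (adjusted p from 0.0503 to 0.202). That for Comp was lost with GC correction, with or without the block, in the libraries with Y-linked transcripts and without any 1 library other than a WT MEF library (adjusted p from 0.0517 to 0.127). Without WT MEF replicate 2, all 9 were called, with Matn4 lower (log2 -2.08, adjusted p = 0.00794) and Hapln1 higher (log2 3.75, adjusted p = 0.0495) in the MEFs, against 64.0% of all genes. Cell type, table and preparation cannot be told apart in these contrasts.

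Per kb of the longest annotated transcript, Matn4 led the order of levels in WT MEFs (7.63 ± 10.3 CPM per kb, SD, n = 3), followed by Sox9 (5.67 ± 3.31), Comp (4.44 ± 6.89), Sox6 (2.38 ± 1.85), Acan (1.99 ± 3.22), Hapln1 (1.04 ± 1.43), Sox5 (0.978 ± 0.635), Matn3 (0.693 ± 0.323), Matn1 (0.474 ± 0.683) and Chad (0.035 ± 0.0504). No neighbours in this order differed by more than the larger of their SDs. In MEFs labelled Atxn7l3-/- the regulators led, Sox6 (6.46 ± 4.4) and Sox5 (3.36 ± 1.39) before Sox9 (1.26 ± 0.628), and all matrix genes were below 0.25 CPM per kb. There Sox5 and Sox9, Sox9 and Matn3, Matn3 and Comp, and Matn4 and Hapln1 were separated by more than the larger SD. In WT mESCs Acan was first (2.17 ± 0.431, n = 2) and Sox6 next (1.26 ± 0.893), and in Atxn7l3-/- mESCs Matn1 (2.7 ± 0.74, n = 3) stood before Matn3 (1.28 ± 0.625), with both steps beyond the larger SD. The place of Comp depends on the length used, 2416 bases here and a median of 548.5 bases in the authors' table. Per kb of the median transcript, Comp led in WT MEFs (mean 19.5 CPM per kb), before Matn4 (14.0 CPM per kb).

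Over the 11 libraries, the 3 genes whose centred log2 CPM lay nearest to that of Sox9 were Ror1, Pf4 and Slc16a7, with root mean square differences of 0.57, 0.71 and 0.72 among 19312 genes. The nearest of the other 9 genes was Sox5 (1.79), followed by Hapln1 (2.02), and Acan (4.61) and Matn1 (5.38) were the most distant of those fitted. The 11 points come from 2 cell types, and the share of this likeness that lies between them was not measured.

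Genes related to the set were described by counts in the same fits. The cartilage collagens were lower in MEFs labelled Atxn7l3-/-, with 4 of the 6 tested called, beside 9.41% of all genes (4.39% lower). Col2a1, the main fibrillar collagen of cartilage, was at 172, 620 and 509 CPM in WT and at 2.65, 0.638 and 2.36 CPM in the other group (log2 -7.86 ± 0.82, SE, adjusted p = 0.00827). Col10a1, a collagen of hypertrophic cartilage, was at 80.2, 459 and 60.8 CPM and at 1.4, 2.48 and 10.1 CPM (adjusted p = 0.0413). For Col10a1 WT replicate 2 was again the highest library, and for Col2a1 it was close to WT replicate 3. The 4 calls became 1 without any 1 of the WT libraries or without replicate 1 labelled Atxn7l3-/-, 2 without replicate 2 and 5 without replicate 3 of that group.

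Of 20 transcription factors of sclerotome and skeleton, 16 were tested in MEFs, 2 were called, both lower, a share near the 9.41% of all genes, and the median log2 difference was -2.62, beside -0.06 over all genes. All 16 lay below 0. For 12 of the 20, tested or not, every library labelled Atxn7l3-/- was below all WT, as for 19.7% of all genes tested. At an unadjusted p under 0.05 there were 8, beside 32.4% of all genes, and DESeq2 called 6, in a fit that called 24.9%. The 2 edgeR calls became 1 without WT replicate 1, 0 without WT replicate 2 or 3 or replicate 1 or 2 labelled Atxn7l3-/-, and 10 without replicate 3 of that group. Scx, a regulator of tendon and of attachment sites on cartilage, was at 5.46, 14.8 and 15.6 CPM in WT and 1.17, 1.15 and 1.79 CPM in the other group (adjusted p = 0.0229). In mESCs Scx went the other way, from 0.114 and 0.0617 CPM in WT to 0.923, 0.47 and 0.674 CPM (log2 2.97 ± 0.67, SE, adjusted p = 0.0427). Sox8, a close relative of Sox9, was at 10.4, 2.34 and 4.58 CPM in WT MEFs and at 0.848, 0.128 and 0.418 CPM in those labelled Atxn7l3-/- (adjusted p = 0.0496).

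Of the paralogues of the 10 genes, 13 of 15 were tested in MEFs and 5 were called, all lower, beside 9.41% of all genes called (4.39% lower). Sox10, a relative of Sox9 in neural crest, was at 7.35, 4.96 and 26.9 CPM in WT and at 0.053, 0 and 0.0896 CPM in the other group (adjusted p = 0.0168). Ncan, a relative of aggrecan in brain, was at 5.39, 9.14 and 6.09 CPM and at 0.424, 0.0766 and 0.329 CPM (adjusted p = 0.0182). Among the WT libraries, replicate 2 was the lowest for Sox10 and the highest for Ncan, by a smaller margin than for Acan. In mESCs 1 of 13 paralogues tested was called, beside 6.96% of all genes. This was Thbs1, of the thrombospondin family to which COMP belongs, at 75.8 and 69.5 CPM in WT and 151, 264 and 140 CPM in Atxn7l3-/- cells (adjusted p = 0.0377). The 5 paralogue calls in MEFs became 3, 2 and 0 without WT replicates 1, 2 and 3, and 0, 2 and 4 without replicates 1, 2 and 3 labelled Atxn7l3-/-.

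Of other genes of cartilage matrix, 3 of 8 tested in MEFs were called, all lower, beside 9.41% of all genes called (4.39% lower), with a median of -1.96. Prelp, a leucine-rich matrix protein, was at 358, 181 and 103 CPM in WT and at 11.1, 1.1 and 1.14 CPM in the other group (adjusted p = 0.0354), and Cilp2 at 1.12, 2.03 and 1.22 CPM and at 0.106, 0.128 and 0.0896 CPM (adjusted p = 0.0141). These 3 calls became 1 without WT replicate 2 or replicate 1 labelled Atxn7l3-/-, and 0 without WT replicate 3 or replicate 2 labelled Atxn7l3-/-. In mESCs, every call in the related and marker lists was lost without either WT library or without Atxn7l3-/- replicate 1, in fits that called 0, 0 and 3 of all genes. With all mESC libraries, edgeR called none of this list, of the growth plate signals, of the proteases or of the collagens (8, 8, 5 and 6 genes tested). At an unadjusted p under 0.05 there were 3, 0, 5 and 5 of them, beside 29.8% of all genes. DESeq2 called 3, 0, 3 and 4, in a fit that called 19.3% of all genes.

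Another list held the genes that build the sugar chains of aggrecan. Of 20 genes of hyaluronan and chondroitin sulphate synthesis, 19 were tested in MEFs, 2 were called, both higher, a share near the 9.41% of all genes, and the median was -0.4. The 2 calls became 6 without replicate 3 labelled Atxn7l3-/- and 0 without any other library but WT replicate 2. Csgalnact1, which starts chondroitin chains, was at 18.7, 63.9 and 33.1 CPM in WT and at 175, 306 and 118 CPM in MEFs labelled Atxn7l3-/- (log2 2.36 ± 0.54, SE, adjusted p = 0.0439). Csgalnact2 was at 57, 51.6 and 49.1 CPM in WT and at 143, 156 and 101 CPM in the other group (log2 1.32 ± 0.22, SE, adjusted p = 0.0217). These 2 enzymes were thus higher in the libraries in which Acan, the main carrier of these chains in cartilage, was near the floor. The list as a whole did not share this direction, since 13 of the 19 genes tested had a log2 difference below 0 and 6 above. In mESCs 1 of 19 was called, beside 6.96% of all genes. This was Papss1, which makes the sulphate donor (23 and 20.6 CPM in WT, 43.9, 39.5 and 38.5 CPM in Atxn7l3-/- cells, adjusted p = 0.0434).

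Of 9 growth plate signals 7 were tested in MEFs and 1 was called, Pthlh, at 0.448, 0.655 and 0.341 CPM in WT and at most 0.0265 CPM in the other group (adjusted p = 0.0221). All 7 tested had log2 differences below 0, with a median of -1.35, beside -0.06 over all genes. For 7 of the 9 listed, tested or not, every library labelled Atxn7l3-/- lay below all WT, as for 19.7% of all genes tested. At an unadjusted p under 0.05 there were 4, beside 32.4% of all genes, and DESeq2 called 4, in a fit that called 24.9%. All 7 aggrecan-cleaving proteases were tested and 2 were called, both lower, beside 9.41% of all genes. Adamts4 was at 46.7, 21.4 and 29.4 CPM in WT and at 5.17, 0.842 and 5.59 CPM in the other group (adjusted p = 0.0472). Adamts15 was at 2.81, 5.02 and 0.901 CPM and at 0.291, 0.0766 and 0.0598 CPM (adjusted p = 0.0392). The other 5 proteases had log2 differences above 0, and the median of the list was 0.51. For 2 of these 5, every library labelled Atxn7l3-/- lay above all WT, as for 20.1% of all genes. The protease calls were lost without any 1 of the 6 libraries, and that of Pthlh without WT replicate 1 or 3 or replicate 1 or 2 labelled Atxn7l3-/-.

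**Figure D4:**
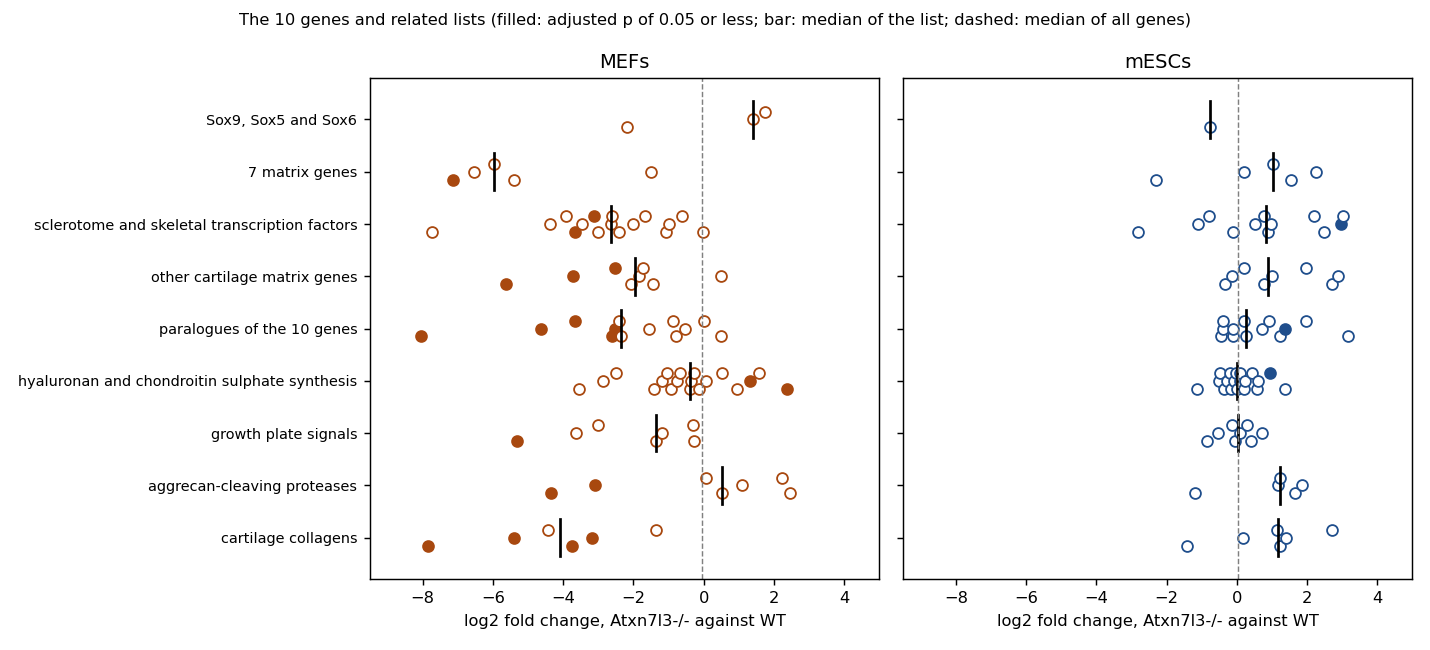
Log2 fold change of the tested genes of each list between Atxn7l3-/- and WT libraries as labelled, in MEFs and mESCs. Each point is a gene, filled where its adjusted p is 0.05 or less, bars give the median of the list and the dashed line the median of all genes (-0.06 in MEFs, 0.04 in mESCs). The 6 tested collagens have a median of -4.08 in MEFs and the list of chain synthesis one of -0.4.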

How the data were processed

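RNA from the 11 cultures had been extracted with NucleoSpin kits and made into TruSeq Stranded mRNA libraries from 700 ng of total RNA. The authors trimmed the reads and mapped them to mm10 with STAR, and the submitters' processing notes name STAR 2.5.3a, HTSeq 0.6.1p1 and DESeq2 1.16.1; the strand setting of the counting is not given in the sources used here. The deposited tables hold raw counts per gene, a signal (DESeq2-normalized reads per kb of median transcript) and the authors' fold changes and p-values, which were not used. Another WT mESC dataset was excluded by the authors and was not analysed here. The study calls the replicates biological; the labels do not say whether each came from its own embryo, so p-values measure the spread between these samples.

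Counts were tested with edgeR 4.0.16 in R 4.3.3 (filterByExpr, TMM, quasi-likelihood, a prior count of 2 for log CPM), separately per cell type and, for the 26398 genes listed in both tables, in 1 fit of all libraries. That test had been run on simulated counts. These held no paired replicates, outlying library or mix of sexes, so the check does not cover such features. MEF libraries with the same number deviated together (r = 0.473, 0.161 and 0.24), as mESC libraries did not (0.008 and -0.172). Each SE was back-calculated as the size of the log2 difference divided by the square root of the F statistic of the edgeR test. Promoters came from RefSeq (GRCm38.p6) and transcripts from GENCODE M21. All 10 genes are named, with up to 2 called genes per direction, cell type and list and the 3 nearest to Sox9. The 10 genes and the lists were chosen with earlier results of these data known. Alternatives were other normalizations and filters, DESeq2 1.42.0, GC correction, the replicate block and leaving out libraries. The MEF result of a further marker list is not reported here.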

Additional observations from a re-analysis of the deposited data

Results flagged for a closer look

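The difference between the genotype effect in MEFs and that in mESCs, tested as an interaction over all 11 libraries with edgeR and an adjusted p of 0.05 or less, was found for Matn4 (log2 -8.1), Matn3 (-3.66) and Matn1 (-6.98). The test called 11.4% of all 19312 genes, and none of these 3 without WT mESC replicate 1 or 2. Every Atxn7l3-/- mESC library lay above both WT mESC libraries for these 3 matrilin genes, as for 23.0% of all genes tested in mESCs. Every MEF library labelled Atxn7l3-/- lay below all WT MEFs for them, as for 19.7% of genes tested in MEFs, to which Matn1 did not belong. That test chose the 3 genes from the same values, so their opposite directions are no further support. The direction within mESCs was not called on its own for any of them (adjusted p = 0.307, 0.062 and 0.0947), and within MEFs it was called for Matn4. No group was large enough (4 or more libraries) for a test of single outlying libraries.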

How the results depend on the processing

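Of 725 recomputed values of the 10 genes, 625 kept their direction and side of the threshold, 37 gained a call, 45 lost one and 18 changed sign, none of the latter a called value. In MEFs the 1 call became 5 without a filter, 5 with DESeq2, which gave Acan and Comp no adjusted p, 7 in 1 fit of all 11 libraries, 2 with the replicate block, 0 of 4 genes tested with at least 10 counts in every library, and 0 to 3 when each library was left out. In mESCs the 0 calls became 2 without a filter, 3 with DESeq2, 1 with the replicate block, 1 with GC correction and block, 3 in libraries with Y-linked transcripts (added after seeing the data), and 0 to 1 when each library was left out. The 3 genes whose effect differed between cell types became 1 of 2 tested with at least 10 counts, 1 with the block, 1 with GC correction and block, 0 in libraries with Y-linked transcripts, and 0 to 4 when each library was left out. With at least 10 counts in every library, 2 genes could be tested between cell types, of which 0 in place of 4 were called in WT cells and 2 in place of 7 in Atxn7l3-/- cells. The share of all genes called moved too: in MEFs from 9.41% to 6.44% without a filter, 24.9% with DESeq2, 18.5% in 1 fit, 14% with the block, 6.43% with at least 10 counts and 1.2% to 12.2% when each library was left out, in mESCs from 6.96% to 9.63%, 19.3%, 2.31%, 8.13%, 6.34% and 0% to 12.8%, and for the difference between cell types from 11.4% to 0.308% in libraries with Y-linked transcripts. Fewer genes are tested under that filter; otherwise the cause was not tested.

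These signs changed, and the far end of the range over left-out libraries follows each. In mESCs, Comp went from 0.19 to -0.47 with the replicate block, -0.14 with GC correction, -0.61 with both and -0.42 without Atxn7l3-/- replicate 3, with 0.54 at most, and Sox6 from -0.76 to 0.25 without WT replicate 1, with -1.92 at least. The difference between cell types turned for Sox9 without WT MEF replicate 2 (0.4), MEF replicate 2 labelled Atxn7l3-/- (0.19) or Atxn7l3-/- mESC replicate 1 (1.03, range from -0.58) and in libraries with Y-linked transcripts (0.76). It turned for Hapln1 with the block (1.57), with GC correction and block (1.23), without WT MEF replicate 2 (0.74, range from -2.79) and without Atxn7l3-/- mESC replicate 3 (0.34). In WT cells, the difference of Acan turned without WT MEF replicate 1 or 3 (0.43 each, range from -4.04), without WT mESC replicate 2 (0.09) and in libraries with Y-linked transcripts (0.42), and that of Comp without WT MEF replicate 2 (-0.35, range to 3.47). The replicate numbers paired MEF libraries only; in mESCs the block called Acan (adjusted p = 0.0311). Low counts limit Sox5, Sox9, Hapln1 and Chad in mESCs and Matn1 and Chad in MEFs.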
